A study of Mus musculus with 12 samples.

Results

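A set of 8 genes of APOE and lipoprotein handling was followed in ARG1+ and ARG1- microglia: the apolipoprotein genes Apoe and Apoc1, the lipase gene Lpl, the receptor gene Lrp1, the sterol exporter genes Abca1 and Abcg1, and Nr1h2 and Nr1h3, which encode the liver X receptors (LXRs). They were chosen by their place in the pathway, with earlier results of these data known, and each was found by its Ensembl identifier among the 55487 genes counted. All 8 passed the filter on low counts, as did 16908 genes of the series. APOE is the main apolipoprotein of the brain and is made by astrocytes and by microglia. It takes up cholesterol and phospholipid that ABCA1 and ABCG1 export from the cell, and the resulting particles are taken up through receptors such as LRP1. LXRs are nuclear receptors that bind oxysterols, pair with retinoid X receptors (RXRs), and switch on genes of sterol export, Apoe and Abca1 among them.

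Microglia were sorted at postnatal day 13 from YARG mice, whose Arg1 locus drives a yellow fluorescent protein (YFP) reporter, so both populations came from animals of the same strain and age and differ in the label that the sort gave. The tissue was basal forebrain and striatum, and the sorted cells were positive for CX3CR1 and negative for the macrophage marker CD206. The brains of several female or of several male mice were pooled for each biological replicate. The paper describes sorting such pooled tissue into both populations, so an ARG1+ and an ARG1- library can come from the same pool. There were 3 libraries each of ARG1+ females, ARG1+ males, ARG1- females and ARG1- males, with 28356659 to 60625170 counts per library. Libraries are called by the number that their labels carry, and those numbers do not say which libraries share a litter or a pool. Any such pairing was left out of the fit, and p values measure the spread between these libraries. Arg1 itself had 0 counts in all 6 ARG1- libraries and in 4 of 6 ARG1+ libraries, with 2 counts in ARG1+ female library 8 and 52 in ARG1+ female library 15, and its transcript therefore gives no check of the sort in most libraries. The microglial markers Cx3cr1, Csf1r, P2ry12, Tmem119, Fcrls and Siglech summed to between 32855 and 43377 CPM in ARG1+ and between 39019 and 55676 CPM in ARG1- libraries. CPM are the counts of a gene scaled to a common normalized library total. Of these 6 markers, 4 were lower in ARG1+ microglia, beside 9.42% of all genes tested. Their log2 fold changes were -0.55 for P2ry12, -0.77 for Tmem119, -0.41 for Fcrls and -0.73 for Siglech. Cx3cr1 (0.08) and Csf1r (0.055) did not pass. Csf1r, the receptor for colony-stimulating factor, had 16697 ± 2973 CPM in ARG1+ and 16185 ± 4024 CPM in ARG1- libraries (mean ± SD, n = 6 each).

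Of the 8 genes, 5 (Apoe, Lpl, Lrp1, Abca1 and Abcg1) rose in ARG1+ microglia by edgeR's quasi-likelihood test (adjusted p under 0.05), and 0 fell. For comparison, 15.9% of all genes tested passed, 6.44% as higher and 9.42% as lower in ARG1+ microglia. For the same 5 genes, the lowest of the 6 ARG1+ libraries exceeded the highest of the 6 ARG1- libraries, a separation found for 3.48% of all genes tested. The median log2 fold change was 1.01 over the 8 genes and 0.06 over all genes tested. When the dependence on gene length and GC content was taken out of every library (the length and GC trend), 3 genes passed (Apoe, Lpl and Abca1), beside 2.94% of all genes as higher and 21.2% as lower. The removal also took out the mean log deviation of each library over all genes, which changed the scale between libraries. With it, the median log2 fold change of all genes tested moved from 0.06 to -0.26. Every value given with the trend removed therefore stands against a lower median, and calls with the trend removed rest on both changes at once. Relative to the median of all genes, Apoe was at 1.66 before and 1.76 after the removal, Lpl at 1.62 and 1.41, Lrp1 at 0.97 and 0.66, Abca1 at 0.95 and 0.74 and Abcg1 at 0.67 and 0.61. In pooled cells, a larger number of transcripts per cell and a larger share of cells that express a gene cannot be told apart.

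**Figure D1:**
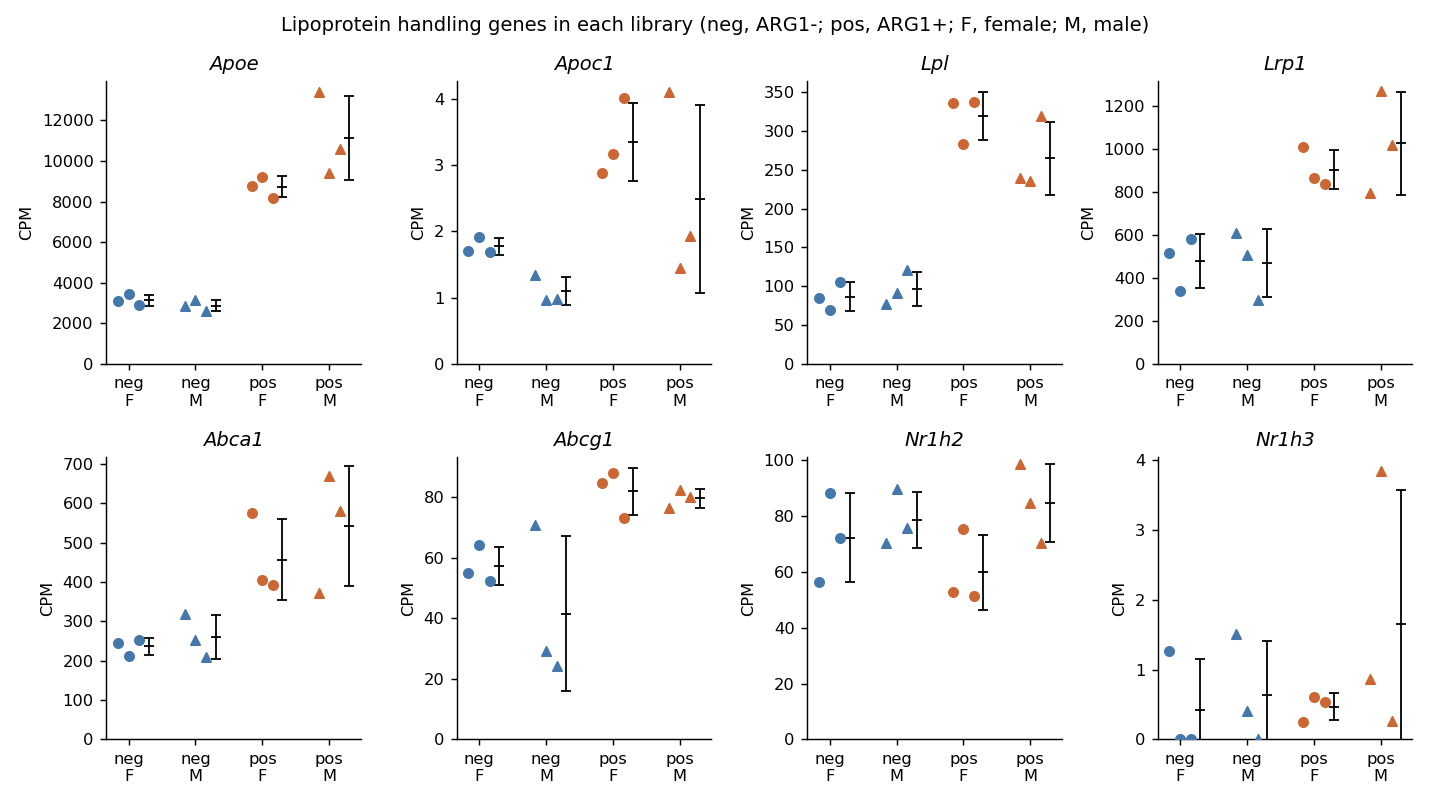
Level of each gene in CPM (y axis, from 0) in the 12 libraries, by ARG1 status and sex (x axis); circles are female and triangles male libraries, and black bars give the mean ± SD of 3 libraries. The ARG1+ libraries of Apoe lie between 8197 and 13406 CPM and its ARG1- libraries between 2610 and 3437 CPM, while the populations overlap for Apoc1, Nr1h2 and Nr1h3.

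Over all libraries, Apoe and Lpl showed the largest fold changes of the 8 genes. In ARG1- microglia, Apoe was measured at 3076, 3437 and 2880 CPM in female libraries 1, 2 and 13 and at 2841, 3131 and 2610 CPM in male libraries 5, 6 and 14. In ARG1+ microglia it was measured at 8749, 9236 and 8197 CPM in female libraries 7, 8 and 15 and at 13406, 9403 and 10600 CPM in male libraries 11, 12 and 16. The lowest ARG1+ library was thus above the highest ARG1- library in both sexes, and the highest value of all was that of ARG1+ male library 11. The mean level was 9932 ± 1881 CPM in ARG1+ and 2996 ± 285 CPM in ARG1- microglia (SD, n = 6 each), a ratio of 3.31. The log2 fold change was 1.72 (SE 0.11, adjusted p = 4.5e-05, edgeR quasi-likelihood test). Each value rests on at least 88112 counts, so counting error is small beside the spread between libraries. Apoe (ENSMUSG00000002985) lies on chromosome 7 at 19696109 to 19699188 on the minus strand of GRCm38, with 2138 bases of exons, and the positions of the other genes are given on the same build and refer to the whole gene.

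Apoe is also a major transcript of astrocytes and of border macrophages, and markers of both were therefore read in the same libraries. Summed over 7 astrocyte markers, the ARG1+ libraries held 130 to 151 CPM and the ARG1- libraries 176 to 224 CPM, a sum that was nearly all Slc1a3, a glutamate transporter gene, at 131 ± 4.95 and 176 ± 20.1 CPM (SD, n = 6 each). Slc1a3 fell by 0.43 on the log2 scale, and the other 6 astrocyte markers did not pass. Of these, Gfap (3.22 ± 2.74 against 1.17 ± 1.63 CPM) and Aldh1l1 (0.98 ± 1.12 against 0.40 ± 0.98 CPM) had higher means in ARG1+ libraries, while Aqp4 did not exceed 4.53 CPM in any library. The 7 border macrophage markers summed to 112 to 237 CPM in ARG1+ and 106 to 141 CPM in ARG1- libraries. Mrc1, which encodes CD206, made up most of that sum (147 ± 46.4 against 122 ± 16.1 CPM, SD, n = 6 each), and 0 of the 5 markers tested passed the test. Ms4a7 (2.73 ± 1.13 against 0.35 ± 0.59 CPM) and Pf4 (1.03 ± 1.1 against 0.56 ± 0.32 CPM) had higher means in ARG1+ libraries. The means of F13a1 (1.93 ± 1.92 against 2.79 ± 4.15 CPM) and Cbr2 (1.99 ± 1.39 against 3.40 ± 1.31 CPM) were lower there. Markers of neurons, led by Snap25, summed to 2.31 to 7.95 CPM in ARG1+ and 4.26 to 13.1 CPM in ARG1- libraries. The sums for oligodendrocytes (57.1 to 118 against 83.3 to 175 CPM, led by Mbp), for endothelial and mural cells (39.9 to 83.6 against 29.8 to 58.3 CPM, led by Pecam1) and for monocytes (9.10 to 22.9 against 5.12 to 18.5 CPM, led by Itgal) overlapped between the populations. One monocyte marker, Plac8, was lower in ARG1+ microglia. The part of these cells in the Apoe difference was not tested.

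Apoc1 (ENSMUSG00000040564, chromosome 7, 19689481 to 19692660, minus strand) encodes a small apolipoprotein that exchanges between lipoprotein particles and lies next to Apoe. Apoc1 counts were low, at 29 to 181 per library. Its level was 1.71, 1.92 and 1.69 CPM in the ARG1- females, 1.35, 0.97 and 0.98 CPM in the ARG1- males, 2.89, 3.17 and 4.02 CPM in the ARG1+ females and 4.11, 1.45 and 1.93 CPM in the ARG1+ males. Within each sex the ARG1+ values exceeded every ARG1- value, but ARG1+ male library 12 lay below all ARG1- female libraries. The log2 fold change was 1.05 (SE 0.35) and did not pass the test (adjusted p = 0.064, edgeR). It passed with DESeq2 (adjusted p = 0.0029) and when genes were required to have at least 10 counts in every library (adjusted p = 0.010, edgeR).

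The genes around Apoe were read to see how far the difference extended along the chromosome. Of the 7 genes tested in this stretch, Apoe rose and Nectin2 fell, and the other 5 did not pass. Of all genes tested, 15.9% passed. Nectin2, a cell adhesion gene whose start lies 51.3 kb from that of Apoe, had 53.5 to 81.5 CPM in ARG1+ and 83.4 to 117 CPM in ARG1- libraries. It fell by 0.50 on the log2 scale (SE 0.12, adjusted p = 0.017, edgeR), a call that was lost without ARG1+ female library 7 (adjusted p = 0.054) or ARG1+ female library 15 (adjusted p = 0.051). Tomm40, which encodes the pore of the mitochondrial import complex and lies between Nectin2 and Apoe, did not pass (log2 fold change -0.39, SE 0.18, adjusted p = 0.16). On the other side of Apoe and beyond Apoc1, Apoc2 reached at most 1.09 CPM (log2 fold change 0.92, SE 1.24, adjusted p = 0.68), and 79.5% of its exon bases are shared with the read-through gene Gm44805, so that its counts are uncertain. Apoc4 had 0 counts in all ARG1- libraries and at most 0.25 CPM in ARG1+ libraries and was not tested. Clptm1 (-0.15, SE 0.15, adjusted p = 0.57) and Relb, which encodes a subunit of NF-κB (-0.32, SE 0.22, adjusted p = 0.36), did not pass either. After removal of the trend on length and GC, Tomm40 (-0.70, adjusted p = 0.0029) and Clptm1 (-0.51, adjusted p = 0.0027) passed as lower, and the values of Apoe and Nectin2 were 1.5 and -0.78. Relative to the median of all genes, the values of Tomm40 (-0.45 before and -0.44 after), Clptm1 (-0.21 and -0.26) and Nectin2 (-0.56 and -0.53) moved little.

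**Figure D2:**
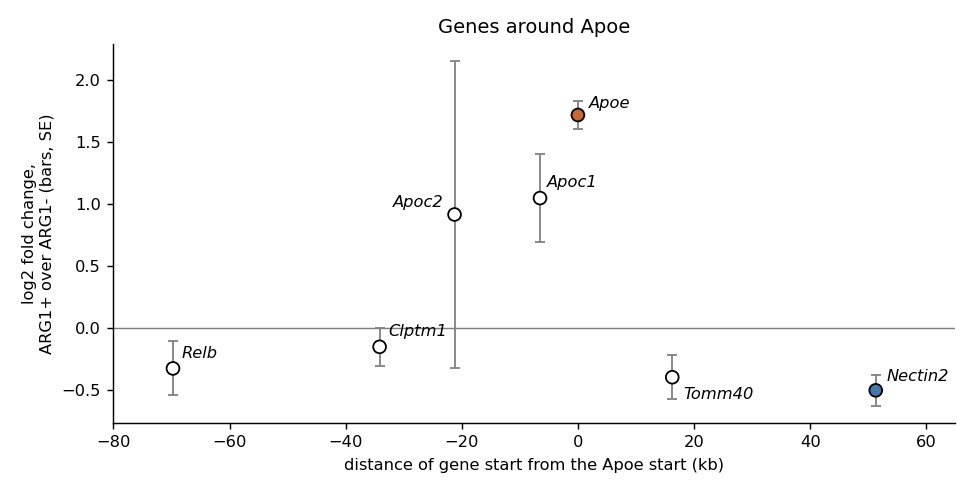
Log2 fold change between ARG1+ and ARG1- microglia (y axis, bars give SE) of 7 genes against the distance of their start from the start of Apoe in kb (x axis); orange is higher, blue lower and white not called. Apoe stands at 1.72 and Apoc1, 6.53 kb away, at 1.05, while Tomm40 at 16.3 kb and Nectin2 at 51.3 kb on the other side are below 0.

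Lpl (ENSMUSG00000015568, chromosome 8, 68880491 to 68907448, plus strand) encodes lipoprotein lipase, which releases fatty acids from the triglycerides of lipoprotein particles. It was measured at 84.5, 68.7 and 106 CPM in ARG1- females, at 76.9, 90.9 and 120.5 CPM in ARG1- males, at 337, 283 and 338 CPM in ARG1+ females and at 239.6, 236 and 319 CPM in ARG1+ males. The populations were separated by a wide gap, from 120.5 CPM in the highest ARG1- library to 236 CPM in the lowest ARG1+ library. The mean was 292 ± 46.4 CPM in ARG1+ and 91.2 ± 19.2 CPM in ARG1- microglia (SD, n = 6 each). Its log2 fold change was 1.67 (SE 0.16, adjusted p = 2.6e-04, edgeR). Of 13 genes of lipases and their partners, 10 were tested and 3 (Lpl, Nceh1 and Lipa) were higher, beside 6.44% of all genes tested. Nceh1, a hydrolase of neutral cholesterol esters, was at 35.4 to 46.0 CPM in ARG1+ and at 0.26 to 16.4 CPM in ARG1- libraries (log2 fold change 2.47, SE 0.63, adjusted p = 0.020), and did not pass without ARG1- female library 2 (adjusted p = 0.055). Lipa, the acid lipase of the lysosome, was at 191 ± 25.7 against 138 ± 19.0 CPM (log2 fold change 0.47, SE 0.12, adjusted p = 0.019), and lost its call with the trend on length and GC removed (0.07, adjusted p = 0.77). Relative to the median of all genes, Lipa was at 0.42 before and 0.33 after the removal.

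Lrp1 (ENSMUSG00000040249, chromosome 10, 127538161 to 127621148, minus strand) encodes a large endocytic receptor that binds APOE and many other ligands. Its level was 517, 338 and 580 CPM in ARG1- females, 608, 507 and 297 CPM in ARG1- males, 1008, 868 and 837 CPM in ARG1+ females and 794, 1270 and 1018 CPM in ARG1+ males. The lowest ARG1+ library, male library 11, was above the highest ARG1- library, male library 5. Its log2 fold change was 1.02 (SE 0.19, adjusted p = 0.0040, edgeR), or a ratio of means of 2.04. With the trend on length and GC removed it was 0.40 and no longer passed (SE 0.14, adjusted p = 0.055).

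Of 16 lipoprotein receptors and their partners, 14 were tested, of which 3 were higher (Lrp1, Sorl1 and Mylip) and 1 was lower. Of all genes tested, 6.44% were higher and 9.42% lower. Sorl1, a sorting receptor of the same family, had 20.3 to 48.0 CPM in ARG1+ and 4.28 to 25.7 CPM in ARG1- libraries (log2 fold change 1.23, SE 0.37, adjusted p = 0.041). Its call was lost in 9 of 12 fits that left out a library (adjusted p up to 0.096) and with the trend removed (0.72, adjusted p = 0.17). Mylip encodes a ubiquitin ligase that marks lipoprotein receptors for degradation and is itself an LXR target. It had 226 ± 15.6 against 161 ± 29.1 CPM (log2 fold change 0.49, SE 0.12, adjusted p = 0.015), and 0.24 (adjusted p = 0.13) with the trend removed. Relative to the median of all genes, Mylip was at 0.44 before and 0.50 after the removal, and Sorl1 at 1.17 and 0.97. Trem2, a receptor for lipids and lipoproteins on microglia, was lower in ARG1+ microglia, at 1100 to 1556 CPM against 1440 to 1763 CPM (log2 fold change -0.40, SE 0.09, adjusted p = 0.011), and was -0.74 with the trend removed (adjusted p = 3.3e-04). Relative to the median of all genes these values are -0.45 and -0.48, and the call was lost with libraries 1 to 12 alone (-0.42, adjusted p = 0.093).

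Abca1 (ENSMUSG00000015243, chromosome 4, 53030787 to 53159895, minus strand) exports cholesterol and phospholipid to apolipoproteins that carry little lipid. It was measured at 246, 212 and 253 CPM in ARG1- females, at 319, 252 and 209.7 CPM in ARG1- males, at 576, 404 and 392 CPM in ARG1+ females and at 373, 670 and 582 CPM in ARG1+ males. The gap between the populations was small next to their ranges, from 319 CPM in ARG1- male library 5 to 373 CPM in ARG1+ male library 11. The log2 fold change was 1.0 (SE 0.16, adjusted p = 0.0018, edgeR) and was 0.48 (SE 0.12, adjusted p = 0.0093) with the trend on length and GC removed.

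Abcg1 (ENSMUSG00000024030, chromosome 17, 31057675 to 31117988, plus strand) exports sterol to particles that already hold lipid. Its level was 55.0, 64.4 and 52.5 CPM in ARG1- females, 70.9, 29.1 and 24.4 CPM in ARG1- males, 84.6, 88.0 and 73.1 CPM in ARG1+ females and 76.4, 82.6 and 80.0 CPM in ARG1+ males. The 6 ARG1+ libraries agreed closely, with a coefficient of variation of 6.74%, whereas that of the ARG1- libraries was 38.1%, since 2 of the 3 ARG1- male libraries were the lowest of all. Its log2 fold change was 0.73 (SE 0.23) with an adjusted p of 0.048 (edgeR). This call held in 1 of 12 fits that left out a library, the fit without ARG1- male library 5 (0.97), and adjusted p reached 0.091 in the others. It was also lost with the trend removed (0.35, adjusted p = 0.18) and with the libraries numbered 1 to 12 alone (0.62, adjusted p = 0.19). The other exporter and lysosomal sterol genes, Abca7, Npc1 and Npc2, had log2 fold changes of 0.29, 0.13 and -0.29 and did not pass, and Npc1 and Npc2 passed as lower with the trend removed.

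The windows of 250 bases before the outermost annotated start of Apoe, Abca1 and Lrp1 are given because these genes differed between the populations and had an entry among the RefSeq promoter sequences for GRCm38.p6, as did 5 of the 8 genes. They are read 5′ to 3′ along the gene, each from the minus strand, and capitals mark matches to the motifs searched. Apoe is at chr7:19699189-19699438, Abca1 at chr4:53159896-53160145 and Lrp1 at chr10:127621149-127621398.
Apoe: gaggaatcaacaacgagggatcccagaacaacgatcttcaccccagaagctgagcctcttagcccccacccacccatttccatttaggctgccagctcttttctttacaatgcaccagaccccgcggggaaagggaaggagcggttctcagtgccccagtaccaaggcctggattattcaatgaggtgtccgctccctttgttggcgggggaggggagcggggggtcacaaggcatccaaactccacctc
Abca1: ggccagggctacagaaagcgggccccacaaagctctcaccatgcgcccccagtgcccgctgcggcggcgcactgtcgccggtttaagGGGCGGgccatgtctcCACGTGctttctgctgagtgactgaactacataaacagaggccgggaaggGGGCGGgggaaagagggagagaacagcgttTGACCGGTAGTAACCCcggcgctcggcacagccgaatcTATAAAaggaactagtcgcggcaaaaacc
Lrp1: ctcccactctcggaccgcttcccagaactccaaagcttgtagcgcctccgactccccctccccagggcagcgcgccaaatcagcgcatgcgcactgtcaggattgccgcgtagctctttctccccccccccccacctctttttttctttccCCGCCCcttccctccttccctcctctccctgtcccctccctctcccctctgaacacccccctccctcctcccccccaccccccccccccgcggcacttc

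On both strands of these windows, the direct repeat bound by LXR with RXR (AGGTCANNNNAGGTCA) was searched with 0, up to 2 and up to 3 mismatches, together with the half-site AGGTCA, the GC box GGGCGG, the TATA box TATAAA and the E-box CACGTG. Abca1 held 2 GC boxes, 163 to 158 and 97 to 92 bases before its start, an E-box at 147 to 142, a match to the repeat with 3 mismatches on the opposite strand at 67 to 52 and a TATA box at 29 to 24. Of 32851 windows of the same length, 32.7% held a GC box, 6.02% an E-box, 12.4% a TATA box and 18.5% the repeat with up to 3 mismatches, a limit that was chosen after the result with up to 2 mismatches was seen. Lrp1 held 1 GC box at 99 to 94 bases on the opposite strand. The Apoe window, that of its outermost start, held 0 matches to these motifs. Apoe also has inner annotated starts, whose windows are not printed. The window at chr7:19698622-19698871 held the TATA box at 96 to 91 bases and, on the opposite strand, at 100 to 95 bases. The repeat with up to 2 mismatches was found in 2.57% of all windows, exactly in 0.0152%, and its half-site in 14%, and none of these was in the windows printed here. These matches describe letters in a window, and binding at them was not tested.

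Nr1h2 (ENSMUSG00000060601, chromosome 7, 44549616 to 44553951, minus strand), which encodes LXRβ, was measured at 56.3, 88.4 and 72.3 CPM in ARG1- females, at 70.5, 89.9 and 75.9 CPM in ARG1- males, at 52.7, 75.5 and 51.4 CPM in ARG1+ females and at 98.6, 84.9 and 70.5 CPM in ARG1+ males. The populations overlapped over nearly the whole range, with means of 72.3 ± 18.3 and 75.6 ± 12.5 CPM (SD, n = 6 each). The log2 fold change was -0.08 (SE 0.16, adjusted p = 0.77, edgeR), and -0.42 (adjusted p = 0.10) with the trend removed. Relative to the median of all genes these values are -0.14 and -0.17. Nr1h3 (ENSMUSG00000002108, chromosome 2, 91184061 to 91202834, minus strand), which encodes LXRα, had 42, 0 and 0 counts in the ARG1- females, 57, 12 and 0 in the ARG1- males, 8, 18 and 19 in the ARG1+ females and 38, 183 and 9 in the ARG1+ males. It thus stood at 0 in 3 ARG1- libraries, where 3 counts would be at most 0.10 CPM, and reached 3.85 CPM in ARG1+ male library 12. The difference did not pass the test (log2 fold change 0.78, SE 1.36, adjusted p = 0.75, edgeR). Per kilobase of exon, the mean level of Nr1h2 was 21.6 CPM in ARG1+ and 22.5 CPM in ARG1- microglia, and that of Nr1h3 was 0.42 and 0.21 CPM.

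LXRs act with RXRs and with co-repressors, and 4 of 7 such genes tested passed, beside 15.9% of all genes tested. Ncor1, which encodes a co-repressor, rose by 0.71 on the log2 scale (SE 0.17, adjusted p = 0.017), and its call was lost with the trend removed (adjusted p = 0.78). Rxrb was lower, at 79.5 ± 19.6 against 114 ± 18.3 CPM (log2 fold change -0.54, SE 0.15, adjusted p = 0.031, and -0.88 with the trend removed). Relative to the median of all genes, Rxrb was at -0.59 before and -0.62 after the removal, and Ncor1 at 0.65 and 0.37. The Rxrb call held in 6 of 12 fits that left out a library. Rxrg was called higher, with at most 3 counts in every ARG1- library and 0 to 3.42 CPM in ARG1+ libraries, where female library 15 had 0 counts.

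Of 14 known LXR target genes, 13 were tested, 6 were higher (Apoe, Lpl, Abca1, Abcg1, Scd2 and Mylip) and 0 were lower. Their median log2 fold change was 0.73, beside 0.06 for all genes tested, of which 6.44% were higher and 9.42% lower. Of the 6 higher target genes, 4 are also among the 8 genes followed, so the list adds Scd2 and Mylip. Scd2, a desaturase of fatty acids, had 392 ± 58.8 against 237 ± 86.3 CPM (log2 fold change 0.76, SE 0.21, adjusted p = 0.030), and 0.41 (adjusted p = 0.11) with the trend removed. Its call held in 6 of 12 fits that left out a library and was lost with libraries 1 to 12 alone (adjusted p = 0.16). Srebf1, the gene of a transcription factor of lipid synthesis, had 108 ± 20.4 against 70.2 ± 28.9 CPM and did not pass. Among 9 genes of lipid storage and fatty acid binding, 8 were tested and 2 were higher. Plin2, the coat protein of lipid droplets, had 112 to 136 CPM in ARG1+ and 67.9 to 84.8 CPM in ARG1- libraries (log2 fold change 0.71, SE 0.09, adjusted p = 6.8e-04), and passed with the trend removed as well (0.43, adjusted p = 0.033). Soat1, the enzyme that esterifies cholesterol, had 141 to 162 CPM against 78.5 to 112 CPM (0.63, SE 0.10, adjusted p = 0.0020), and 0.13 (adjusted p = 0.42) with the trend removed. Relative to the median of all genes, Scd2 was at 0.71 before and 0.66 after the removal, Plin2 at 0.65 and 0.69 and Soat1 at 0.57 and 0.39.

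Over the 7 pathway lists together, which hold 72 genes with the 8 included and leave out the neighbours of Apoe that belong to no such list, 56 genes were tested, of which 15 rose and 2 fell, with a median log2 fold change of 0.48. Without the 8 genes, 48 were tested, 10 were higher and 2 lower, with a median of 0.41, beside the 6.44% and 9.42% of all genes tested. With the length and GC trend removed the balance of these 48 turned, to 3 higher (Nceh1, Plin2 and Rxrg) and 9 lower with a median of 0.03, beside the 2.94% and 21.2% of all genes and their median of -0.26. With libraries 1 to 12 alone, 5 of the 48 passed, each as higher (Nceh1, Ncor1, Plin2, Rxrg and Soat1), and Lipa (adjusted p = 0.11), Mylip (adjusted p = 0.084) and, beside Apoe, Nectin2 (adjusted p = 0.13, edgeR) lost their calls. Both of these settings were chosen for the lists after the data were seen. The apolipoproteins were represented by few genes, since 9 of 15 had too few counts to be tested and Apoe was the only gene of the 6 tested that passed the test.

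**Figure D3:**
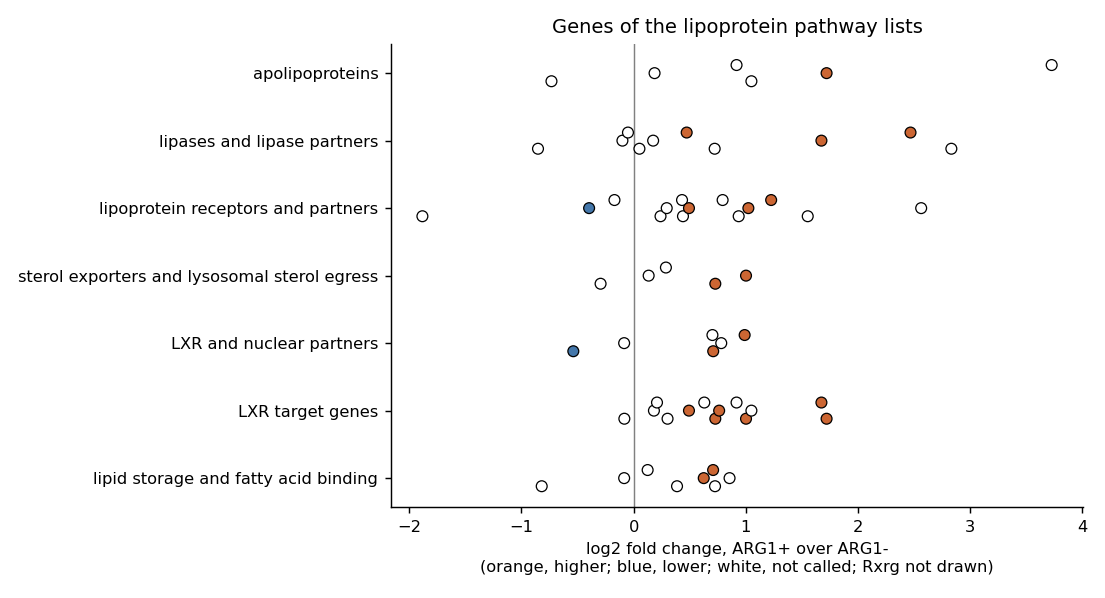
Log2 fold change between ARG1+ and ARG1- microglia (x axis) of the genes tested in 7 pathway lists (y axis), 1 point per gene; orange is higher, blue lower and white not called, and genes can stand in more than 1 list. The 6 orange points among the LXR target genes lie between 0.49 and 1.72, and the blue points are Trem2 at -0.40 and Rxrb at -0.54; Rxrg is not drawn, since its ARG1- libraries held at most 3 counts.

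Within each sex, the log2 fold change of Nr1h3 was positive, at 0.17 (SE 1.94) in females and 1.38 (SE 1.95) in males. That of Nr1h2 was -0.27 in females and 0.10 in males. The differences of Apoe, Apoc1, Lpl, Lrp1, Abca1 and Abcg1 were positive in both sexes as well. For these 6 genes the lowest ARG1+ library exceeded the highest ARG1- library in females and in males. The gap was narrow for Apoc1 in males (1.45 against 1.35 CPM). Each such ordering rests on 3 libraries against 3, and the share of all genes with it in a single sex was not counted. In females, the log2 fold change was 1.48 for Apoe (adjusted p = 5.9e-04), 1.89 for Lpl (adjusted p = 0.0023) and 0.95 for Abca1 (adjusted p = 0.036), and that of Lrp1, 0.92, did not pass (adjusted p = 0.067, edgeR). These 3 genes of 8 compare with 6.76% of all genes called in females. In males, it was 1.96 for Apoe (adjusted p = 1.4e-04), 1.46 for Lpl (adjusted p = 0.011), 1.13 for Lrp1 (adjusted p = 0.040) and 1.06 for Abca1 (adjusted p = 0.032), so that 4 genes of 8 passed beside 5.13% of all genes. Abcg1 passed in neither sex (adjusted p = 0.39 and 0.11). Within single sexes, the calls of Abca1 in females and of Lrp1 in males held in 5 of 12 fits that left out a library and that of Abca1 in males in 7, those of Apoe held in all 12 in both sexes, and that of Lpl held in 12 in females and 10 in males.

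The difference between the sexes was itself tested. The ARG1 difference of Apoe was 0.48 larger on the log2 scale in males (SE 0.18, adjusted p = 0.49, edgeR). For Lpl the same term, the male minus the female difference, was -0.42 (SE 0.29, adjusted p = 0.71, edgeR). None of the 8 passed, and 0% of all genes did by edgeR, of which 1576 had an unadjusted p under 0.05. Within ARG1+ microglia, the female level of Apoe was 8727 ± 520 CPM and the male level 11136 ± 2054 CPM (SD, n = 3 each), with a log2 difference of females against males of -0.35 (adjusted p = 1, edgeR). Within ARG1- microglia, these levels were 3131 ± 283 and 2861 ± 261 CPM, a difference that did not pass (log2 difference 0.13, adjusted p = 0.83, edgeR). Nr1h2 was at 59.9 ± 13.5 CPM in female and 84.7 ± 14 CPM in male ARG1+ libraries (log2 difference -0.50, adjusted p = 1, edgeR). Between the sexes, 0.0946% of all genes passed in ARG1- and 0.0355% in ARG1+ microglia, and 0 of the 8 genes were among them.

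Libraries numbered 13 to 16 in the labels, 1 in each of the 4 groups, allow the same comparison without the other 8. There the ratio of ARG1+ to ARG1- CPM was 2.85 in females and 4.06 in males for Apoe, beside 2.76 and 3.82 in the libraries numbered 1 to 12. For Lpl these ratios were 3.19 and 2.65, beside 4.05 and 2.84. For Lrp1, Abca1 and Abcg1 the female ratios were 1.44, 1.55 and 1.39 and the male ratios 3.42, 2.78 and 3.28 in libraries 13 to 16, whereas in libraries 1 to 12 they were 2.2, 2.14 and 1.45 in females and 1.85, 1.83 and 1.59 in males. Each ratio of libraries 13 to 16 compares 1 library with 1 other and has no replicate. For these 3 genes the ratio was thus larger in males than in females in the higher numbered set, and of Lrp1 and Abca1 it was smaller in males in the lower numbered set.

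**Figure D4:**
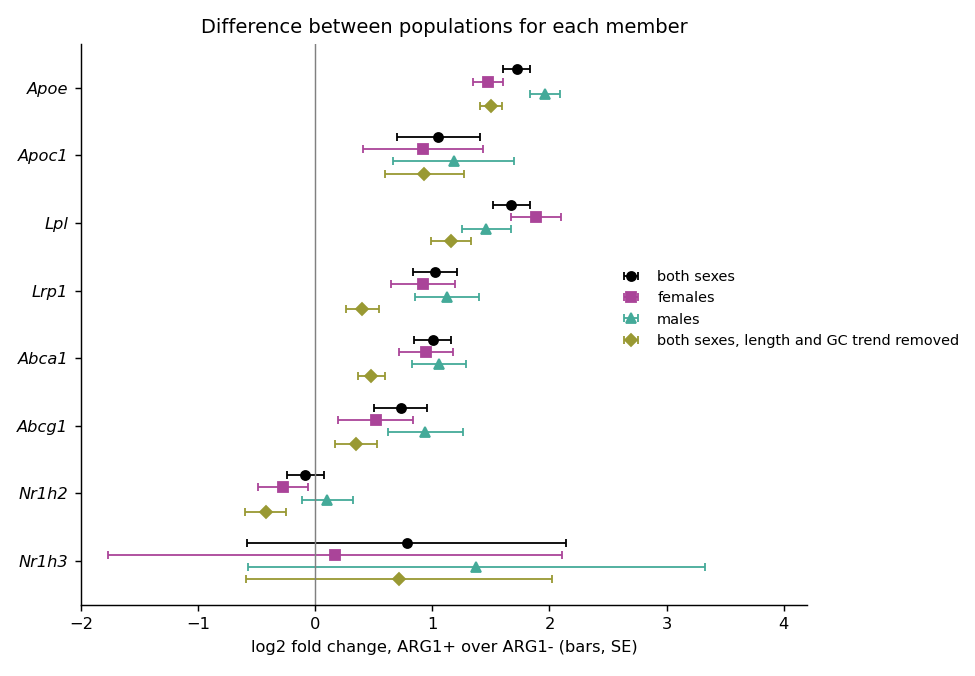
Log2 fold change between ARG1+ and ARG1- microglia (x axis, bars give SE) of the 8 genes (y axis) over both sexes, in females, in males, and over both sexes after removal of the length and GC trend. Apoe lies at 1.72, 1.48, 1.96 and 1.5 and Lpl at 1.67, 1.89, 1.46 and 1.16, while Lrp1 moves from 1.02 to 0.40 with the trend removed.

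Fold changes between the populations moved with gene length across all genes, and this touches several of the 8. Among genes with a mean of at least 10 CPM, the median log2 fold change was -0.54 for genes with under 2 kb of exons, -0.14 from 2 to 5 kb, 0.16 from 5 to 10 kb and 0.42 over 10 kb, where 24.3% of the genes were higher in ARG1+ microglia. The shift was read per library as the median deviation of genes over 10 kb minus that of genes under 2 kb. It was -0.60 to -0.35 on the log2 scale in ARG1- libraries and -0.06 to 0.86 in ARG1+ libraries, so the populations did not overlap in it. ARG1+ male library 11 had the lowest shift of the ARG1+ libraries, the highest Apoe and the lowest Lrp1 and Abca1 among them, while ARG1+ male library 12 had the highest shift and the highest Lrp1 and Abca1. A list of 12 genes with retained introns or nuclear transcripts, led by Rsrp1, also summed higher in ARG1+ libraries (4971 to 8343 CPM) than in ARG1- libraries (2270 to 4599 CPM). Of these 12 genes, 7 were called higher, beside 6.44% of all genes tested. The 8 immediate early genes, led by Junb, summed to 316 to 375 CPM in ARG1+ and 246 to 406 CPM in ARG1- libraries, and Egr1 and Atf3 of these were higher.

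Lpl, Lrp1 and Abca1 have 10.5, 17.7 and 10.4 kb of exons, Abcg1 has 7.30 kb, and Apoe and Apoc1 have 2.14 and 0.74 kb. These lengths count every base in an exon of any annotated transcript, so the transcript present in the cells can be shorter. The length classes and the trend removal rest on them. Of the genes of the same length class with a mean of at least 10 CPM, 0.26% had a larger log2 fold change than Apoe and 0.67% than Lpl. For Lrp1, Abca1 and Abcg1 these shares were 8.89%, 9.90% and 9.73%. After the length and GC trend was removed, Apoe (1.5, SE 0.09, adjusted p = 1.7e-05), Lpl (1.16, SE 0.17, adjusted p = 4.4e-04) and Abca1 passed, and Lrp1 and Abcg1 did not, with the lower median of all genes given above. The part of gene length and of nuclear transcripts in these differences was not tested.

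**Figure D5:**
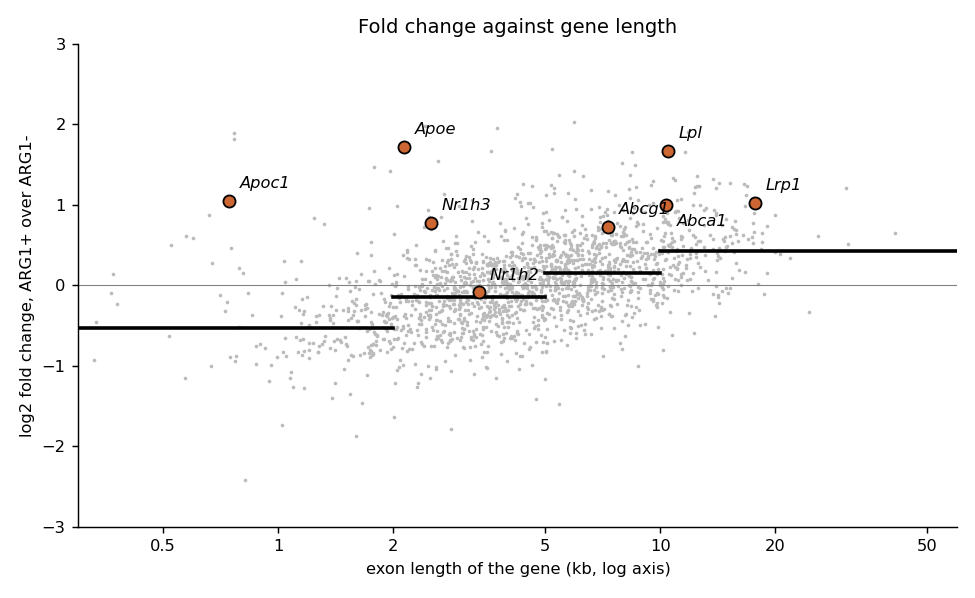
Log2 fold change between ARG1+ and ARG1- microglia (y axis) against exon length in kb (x axis, log scale), with a regular subset of the genes of at least 10 CPM in grey, the median of each of 4 length classes as black lines and the 8 genes in orange. The class medians climb from -0.54 to 0.42 with length, and Apoe at 1.72 and Lpl at 1.67 stand far above the lines of their classes, while Lrp1 at 1.02 and Abca1 at 1.0 stand nearer to the line at 0.42.

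Per kilobase of exon, Apoe stood far above the other genes, at 4645 CPM in ARG1+ and 1401 CPM in ARG1- microglia. The lengths are again those over all annotated transcripts, and the order depends on them. Apoe was followed in ARG1+ microglia by Lrp1 (54.5 CPM per kilobase), Abca1 (48.2), Lpl (27.9), Nr1h2 (21.6), Abcg1 (11.1), Apoc1 (3.93) and Nr1h3 (0.42). In ARG1- microglia the order was Apoe, Lrp1 (26.8), Abca1 (24.0), Nr1h2 (22.5), Lpl (8.71), Abcg1 (6.77), Apoc1 (1.93) and Nr1h3 (0.21), so that Lpl and Nr1h2 changed places. The libraries of neighbouring genes in this order overlapped for Lrp1 and Abca1 in both populations, for Lpl and Nr1h2 in ARG1+ microglia, and for Abca1 and Nr1h2 and for Lpl and Abcg1 in ARG1- microglia.

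Among 8953 genes with a mean of at least 10 CPM, those most like Apoe over the 12 libraries by Pearson's correlation of log2 CPM were Plin2 (0.95), Anxa5 (0.95), Axl (0.94), Gm43361 (0.94) and Ank (0.94). All of these were higher in ARG1+ microglia. Since Apoe separated the populations, a high correlation over all libraries picks genes that are higher there, so their direction is no separate result. With the mean of each of the 4 groups removed, so that the correlation describes only how replicates vary, the genes most like Apoe were others, namely Ninj1 (0.96), Suclg1 (0.93), Mrps28 (0.93), Idh2 (0.91) and Mpc1 (0.90), of which 4 were lower in ARG1+ microglia and Ninj1 did not pass. Between the 8 genes, Lrp1 and Abca1 had a correlation of 0.95 over the libraries and 0.81 with group means removed, and Apoe and Apoc1 had 0.74 and 0.69. Apoe and Lpl had 0.90 over the libraries and -0.48 with group means removed, and Apoe and Abca1 had 0.83 and -0.54. These points share libraries, depth and the length shift described above, and the values are descriptions over 12 libraries.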

How the data were processed

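Bulk RNA-seq of 12 libraries was used. The authors sorted the cells, made complementary DNA with the SMART-Seq v4 kit and libraries with Nextera XT, aligned single-end reads to GRCm38 with STAR 2.6.1d and counted them on genes with featureCounts 1.5.1. Whether counting used strand is not given in the sources used here. The deposited values are raw counts per gene, without normalization, and 0 columns were left unused. The authors compared groups with DESeq2 1.28.1.

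Symbols, positions and exon lengths came from GENCODE M21, which matched 55227 of 55487 identifiers, 260 not being matched. The exon length of a gene is the union of the exons of all its annotated transcripts. The counts were analysed with edgeR 4.0.16 (R 4.3.3): filterByExpr with the 4 groups kept 16908 genes, TMM factors scaled the libraries, and quasi-likelihood tests (glmQLFit, glmQLFTest) were adjusted by Benjamini–Hochberg over all of these, at a limit of 0.05. ARG1+ and ARG1- libraries were compared with sex as a term, and contrasts within sexes, within populations and their interaction came from a fit of 4 group means. SEs are the absolute fold change over the root of its F statistic. The script was tested on simulated data. All 12 pairs of replicate libraries differed by more than sampling noise (chi-square over its degrees of freedom 40.7 to 125). Reads carry no molecular identifiers, so limits from counts cover counting error only. The floor of 3 counts equals 0.051 to 0.10 CPM.

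The members and gene lists were chosen with earlier results of these data known. Named genes are the 8 members, all genes of the Apoe cluster, up to 4 called genes with the largest absolute fold change in each other pathway list, the most abundant gene of each marker list and the 5 genes most like Apoe by each of 2 measures. Srebf1, Abca7, Npc1, Npc2, Gfap, Aldh1l1, Aqp4, Ms4a7, Pf4, F13a1, Cbr2, Plac8, Egr1, Atf3 and the microglial markers other than Csf1r were named besides. For 1 gene that the rule covers, values are not reported here. The alternatives were DESeq2 size factors, upper-quartile factors, no filter, at least 10 counts in every library, ARG1 status alone, a term for libraries 13 to 16, libraries 1 to 12 alone, DESeq2 1.42.0 without and with a beta prior, thinning to the smallest library, smoothing out length and GC dependence in every library (mgcv 1.9.3; the length and GC trend), a prior count of 0.5, and each library left out in turn. For the likeness to Apoe they were Spearman's correlation and a minimum of 50 CPM. The smoothing of length and GC also took out the mean log deviation of each library over all genes.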

Additional observations from a re-analysis of the deposited data

Results flagged for a closer look

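In all, 4 levels stood apart from the other libraries of their population by Dixon's criterion at the 95% level, where chance alone gives about 2.7 of the 54 sets of 6 libraries searched, or 1 in 20. Nr1h3 was at 3.85 CPM (183 counts) in ARG1+ male library 12, while the other ARG1+ libraries were between 0.25 and 0.86 CPM. Clptm1, a neighbour of Apoe, was at 712 CPM in ARG1- female library 1, beside 424 to 473 CPM in the other ARG1- libraries. Trem2 was at 1556 CPM in ARG1+ male library 11, beside 1100 to 1242 CPM in the other ARG1+ libraries, and this library also had the highest Apoe level and the lowest length shift of the ARG1+ libraries. Rxrg was at 0.079 CPM (3 counts) in ARG1- male library 5, where the other ARG1- libraries had 0 counts. Any count above 0 in that library would have been flagged, so this flag cannot be set against the chance figure.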

How the results depend on the processing

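Apoe, Lpl and Abca1 kept their direction and their call in every one of 24 alternatives each, with log2 fold changes from 1.5 to 1.79, 1.16 to 1.81 and 0.48 to 1.10. Lrp1 lost its call in 1 of 24, the removal of the length and GC trend, and Abcg1 in 13 of 24. Of the 8 genes, 3 were called with the trend removed, and 4 to 5 with 1 library left out. Nr1h2, never called, changed sign with libraries 1 to 12 alone (0.0339) and ranged from -0.14 to 0.0121 with 1 library left out, and Clptm1 from -0.19 to 0.0003. The number of genes called, 2682, became 638 with libraries 1 to 12 alone (fewer samples), 4105 with DESeq2 without a prior (2141 higher and 1964 lower, beside 1089 and 1593), 4069 with the trend removed (496 higher and 3573 lower) and 1753 to 2669 with 1 library left out, lowest without ARG1+ male library 12. In females 1143 became 2631 with DESeq2 and 91 to 1108 with 1 library left out, lowest without ARG1+ female library 7. In males 868 became 2553 with DESeq2 and 8 to 1187 with 1 library left out, lowest without ARG1+ male libraries 12 (8) and 16 (27). The interaction, 0, became 284 with DESeq2 and 0 to 10 with 1 library left out, highest without ARG1- male library 5. Females against males gave 16 genes in ARG1- microglia, 0 with at least 10 counts in every library, 404 with DESeq2 and 11 to 48 with 1 library left out, and 6, 0, 39 and 6 in ARG1+ microglia. The 18 genes called in all pathway lists and around Apoe (15 higher, 3 lower) became 9 with libraries 1 to 12 alone, and 18 with the trend removed (6 higher, 12 lower). Of the 5 genes most like Apoe, 3 were shared with a minimum of 50 CPM and 0 with Spearman's correlation. Anxa5 and Gm43361 had means under 50 CPM and could not be shared at that minimum. The cause was not tested in these cases. Counts were low for Apoc1, Apoc2, Nr1h3 and Rxrg, and the part of this in their results was not tested. No paired analysis was possible because the groups share no replicate number in the labels.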
